A study of Mus musculus with 48 samples.

Results

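Serpina genes encode clade A serpins, most of them serine protease inhibitors that the liver secretes into plasma. The 10 genes described here are Serpina1a, Serpina1b, Serpina1c, Serpina1d, Serpina1e, Serpina3k, Serpina3m, Serpina3n, Serpina6 and Serpina10, taken by symbol from a frozen (FROZ) and a formalin-fixed paraffin-embedded (FFPE) liver expression table. The set was chosen on the measured dose responses of Serpina1b and Serpina1e, which differed between the tables, so the responses of these 2 genes are given as a description without a test. Of the 10 genes, 8 were among the 11275 rows of the FROZ table and 9 among the 6673 rows of the FFPE table. Serpina1c was listed in neither table and Serpina1d was listed in FFPE only, which left 8 genes listed in both.

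The livers came from 24 male B6C3F1 mice, a hybrid strain with a high background of liver tumors, which were 4 weeks old and received dichloroacetic acid (DCA), a byproduct of water chlorination, in their drinking water for 6 days. Each of 4 groups held 6 animals, at 0 (vehicle control), 198, 313 and 427 mg/kg-d, from water with no DCA or with 1.0, 2.0 or 3.5 g/L. Each animal gave 1 FROZ library, from RNA isolated from mixed liver lobes, and 1 FFPE library, from lysed tissue sections, 48 libraries in all. According to the paper the right medial lobe entered both, with left lateral caudate lobe in FROZ and left lateral lobe in FFPE. The tissue was stored for decades, frozen or as FFPE at ambient temperature. Lobe, storage and preservation thus cannot be told apart between the tables. The libraries were measured by TempO-Seq, in which adjoining detector oligos are ligated on their target transcript, amplified and sequenced, and in which oligos for very abundant transcripts were attenuated.

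A serpin acts as bait: a protease cleaves its exposed reactive centre loop, and the folded inhibitor then traps the enzyme. Mice carry several copies of the alpha-1-antitrypsin gene (the Serpina1 group, known for inhibiting neutrophil elastase) and of the antichymotrypsin gene (the Serpina3 group), and the copies differ most in that loop. Serpina10 encodes the protein Z-dependent inhibitor of coagulation factor Xa. Serpina6 encodes corticosteroid-binding globulin, a hormone carrier of the family that does not inhibit proteases. These genes are transcribed chiefly in hepatocytes, where factors such as HNF1 and HNF4 and signals from hormones and inflammation are known to act on them.

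All 10 genes lie on chromosome 12 of GRCm38 (mm10), in the order Serpina10, Serpina6, Serpina1b, Serpina1d, Serpina1a, Serpina1c, Serpina1e on the minus strand and Serpina3k, Serpina3m, Serpina3n on the plus strand. The protein-coding genes whose responses chose the set, Serpina1b and Serpina1e, span chr12:103728156-103830373 and chr12:103946931-103958975 in GENCODE vM21. The span of Serpina1b also covers Serpina1d. Coding sequences of the 5 Serpina1 genes are each 1242 bases long, and between 96.3% (Serpina1e with Serpina1b or with Serpina1d, 46 differences each) and 98.5% (Serpina1a and Serpina1c, 19 differences) identical. Over the whole alignment 86 columns, or 6.92%, differed in at least 1 gene. The 75-base stretch with most differences holds 19 of them (25.3%), lies in exon 5 of 5, and falls in the part that encodes the reactive centre loop. It is shown for all 5 genes because it is where their transcripts can best be told apart, with capitals at columns that differ in at least 1 gene.
Serpina1a, chr12:103853744-103853818, minus strand: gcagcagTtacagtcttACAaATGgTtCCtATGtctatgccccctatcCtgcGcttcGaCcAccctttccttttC
Serpina1b, chr12:103728311-103728385, minus strand: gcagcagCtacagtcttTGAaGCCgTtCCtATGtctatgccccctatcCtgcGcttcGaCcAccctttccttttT
Serpina1c, chr12:103895081-103895155, minus strand: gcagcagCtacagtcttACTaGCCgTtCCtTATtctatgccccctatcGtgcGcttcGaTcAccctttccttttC
Serpina1d, chr12:103763749-103763823, minus strand: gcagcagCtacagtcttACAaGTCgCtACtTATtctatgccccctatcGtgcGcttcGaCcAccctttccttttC
Serpina1e, chr12:103947087-103947161, minus strand: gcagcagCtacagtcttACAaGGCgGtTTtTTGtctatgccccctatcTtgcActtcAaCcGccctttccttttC

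The upstream sequences of Serpina1b and Serpina1e were alike as well, with 97.0% identity over 200 aligned columns (6 differences). The 250 bases before the RefSeq start site (GRCm38) are shown for both genes because their measured responses differed, with GTTAAT, part of the recognition sequence of HNF1, in capitals.
Serpina1b, chr12:103738190-103738439, minus strand: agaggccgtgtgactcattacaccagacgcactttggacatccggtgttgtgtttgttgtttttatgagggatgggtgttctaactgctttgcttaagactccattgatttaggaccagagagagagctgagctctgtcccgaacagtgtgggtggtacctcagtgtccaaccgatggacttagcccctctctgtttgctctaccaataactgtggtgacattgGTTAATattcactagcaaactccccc
Serpina1e, chr12:103956898-103957147, minus strand: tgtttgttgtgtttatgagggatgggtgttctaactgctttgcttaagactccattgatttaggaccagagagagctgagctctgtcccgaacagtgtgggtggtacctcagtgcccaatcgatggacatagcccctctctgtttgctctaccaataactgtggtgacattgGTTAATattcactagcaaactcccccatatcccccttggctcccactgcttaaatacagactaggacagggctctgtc

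GTTAAT was searched on both strands and occurred 1 time in each of these windows, with its first base at -26 in Serpina1b and -78 in Serpina1e relative to the start site. It also occurred 1 time upstream of Serpina1a, Serpina1c and Serpina1d, against 6.43% of the 32851 upstream windows of this length in the RefSeq table. The motif was picked after these sequences were seen, 6 of the 10 genes have an entry in that table, and a match of these letters is a description only.

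Because reads were 50 bases long, the share of each gene's 50-base transcript windows that another gene also holds bears on how its reads could be assigned. It was 57.6% in Serpina1a, 29.5% in Serpina1b, 74.2% in Serpina1c, 50.9% in Serpina1d and 34.6% in Serpina1e, in each case with another Serpina1 gene as the most frequent partner. It was 14.0% in Serpina3k, 19.1% in Serpina3m and 6.90% in Serpina3n, 1.47% in Serpina10 and 0% in Serpina6. The authors' counting split ambiguous reads by expectation maximization, which can give fractions of a read. Serpina6 lay within 0.1 of a whole number of reads in 24 of 24 FROZ and 24 of 24 FFPE libraries, while Serpina1a did so in 5 of 24 and 6 of 24, at similar read numbers (medians of 504 for Serpina6 and 510 for Serpina1a in FROZ). Serpina3n was whole in 21 of 24 FROZ libraries and Serpina3m in 4 of 24. Whole values did not simply follow sharing, since Serpina10 was whole in 24 of 24 FFPE libraries but in 1 of 24 FROZ libraries, where it had a median of 4692 reads. With so many shared windows, levels of the Serpina1 and Serpina3 paralogs are uncertain as to which copy a read belonged to, and the positions of the oligos were not used here.

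The libraries held 6.69 to 9.84 M reads on listed genes in FROZ (median 8.25 M) and 1.83 to 6.01 M in FFPE (median 4.71 M), as recovered from the steps between low values. Genes listed at 0 numbered 12 to 61 per FROZ library and 65 to 1580 per FFPE library, and the 4 FFPE libraries with more than 1000 such genes were 3 at 198 and 1 at 313 mg/kg-d. Of 10 hepatocyte markers 9 were listed in FROZ and 8 in FFPE (transferrin, Tf, in neither). Levels below are log2(CPM + 1), where CPM is counts scaled to a common library total, each table scaled on its own, so FROZ and FFPE levels are set side by side without a test. Oligos differ in number and attenuation, and Serpina1e is on the authors' list of attenuated oligos, so no gene is called more abundant than another.

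Serpina1e, an alpha-1-antitrypsin copy, showed the widest range of the 10 genes. In FROZ the controls lay between 12.43 and 13.39 (median 12.86), the 198 mg/kg-d group between 12.39 and 13.23 (median 12.94) and the 313 mg/kg-d group between 12.28 and 13.06 (median 12.70). These 3 groups overlapped. At 427 mg/kg-d the FROZ values ran from 9.35 to 12.14 (median 10.46), with all 6 animals below all 6 controls. In FFPE the controls lay between 10.73 and 12.07 (median 11.67) and the 198 mg/kg-d group between 10.68 and 12 (median 11.53). The FFPE values at 313 mg/kg-d ran from 7.99 to 10.35 (median 9.12) and at 427 mg/kg-d from 4.93 to 7.59 (median 6.58). Neither of these groups overlapped the controls, so separation was present from 313 mg/kg-d in FFPE and at 427 mg/kg-d in FROZ. The log2 fold change at 427 mg/kg-d was -2.18 (SE 0.29) in FROZ, a 4.54-fold lower mean, and -5.27 (SE 0.37) in FFPE, a 38.6-fold lower mean. At 313 mg/kg-d it was -0.17 (SE 0.29) in FROZ and -2.35 (SE 0.37) in FFPE. Animal 100 held the highest 427 mg/kg-d value in both tables. The lowest FFPE value rested on 152 reads, far above the 3 reads that a library listed at 0 could hold.

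**Figure D1:**
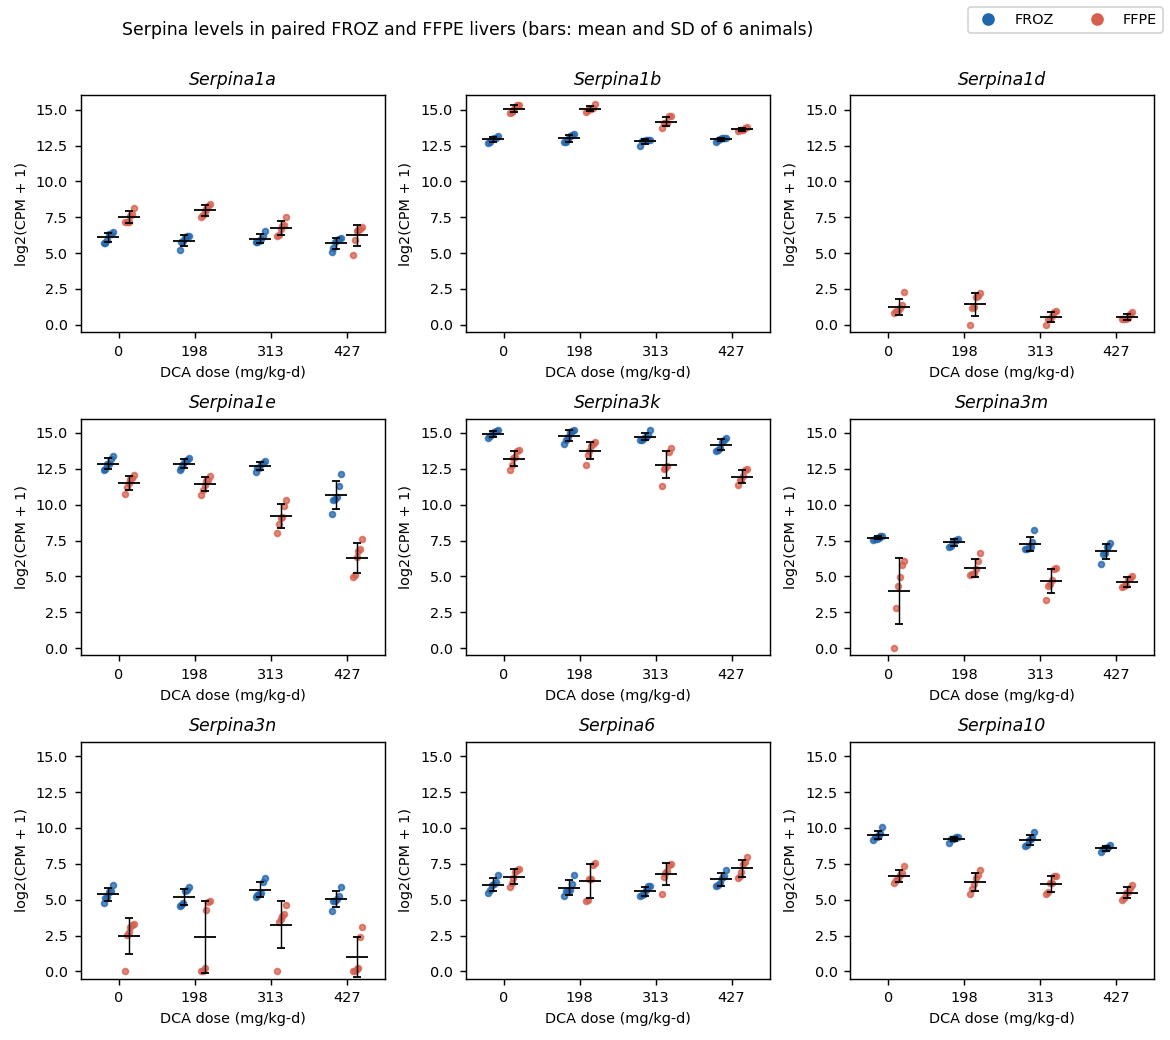
Level of each listed Serpina gene by DCA dose, as log2(CPM + 1), with 1 point per animal in FROZ (blue) and FFPE (red) and bars for the mean and SD of 6 animals. Serpina1e lay below all controls from 313 mg/kg-d in FFPE and at 427 mg/kg-d in FROZ, while Serpina1b was lower with dose in FFPE only.

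Serpina1b, another antitrypsin copy, had flat FROZ values. Controls lay between 12.71 and 13.14 (median 12.98), and the medians at 198, 313 and 427 mg/kg-d were 13.04, 12.84 and 12.99, with every group overlapping the controls. In FFPE the controls lay between 14.79 and 15.33 (median 15.07) and the 198 mg/kg-d group between 14.87 and 15.39 (median 15.06). At 313 mg/kg-d FFPE values ran from 13.71 to 14.58 (median 14.06) and at 427 mg/kg-d from 13.51 to 13.79 (median 13.60). All 12 FFPE animals at these doses were below all 6 controls, whereas their FROZ libraries were not. The log2 fold change at 427 mg/kg-d was -0.00099 (SE 0.12) in FROZ and -1.43 (SE 0.17) in FFPE, a 2.70-fold lower mean. Every library held at least 38511 reads of Serpina1b, so counting error was small beside the spread between animals.

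Within a library the log2 difference of Serpina1e and Serpina1b does not depend on the scaling of that library. Attenuation of Serpina1e enters its size, and the authors state that attenuation was the same for every sample. In FROZ, Serpina1e minus Serpina1b was -0.08 ± 0.28 (SD, n = 6) in controls, -0.16 ± 0.37 at 198, -0.09 ± 0.31 at 313 and -2.26 ± 0.97 at 427 mg/kg-d. In FFPE it was -3.53 ± 0.38 in controls, -3.65 ± 0.49 at 198, -4.97 ± 0.54 at 313 and -7.36 ± 1.04 at 427 mg/kg-d. Serpina1e was thus lower relative to Serpina1b at the highest dose than in controls in both tables. The difference was already unlike between the tables in controls, at -0.08 in FROZ and -3.53 in FFPE, and the cause was not tested. The summed level of the listed Serpina1 copies (3 in FROZ and 4 in FFPE) does not change with how reads were split between those copies. Reads given to an unlisted copy (Serpina1c in both tables, Serpina1d in FROZ) are missing from it. The sum also gives the attenuated Serpina1e less weight. As each table was scaled on its own, the sum is read only between doses of a table. It was 15609 ± 2681 CPM in FROZ controls and 9884 ± 1425 CPM at 427 mg/kg-d (SD, n = 6), and 38014 ± 6095 CPM and 12936 ± 1028 CPM in FFPE. At 313 mg/kg-d the sum was 13879 ± 1549 CPM in FROZ, within the range of its controls in 5 of 6 libraries, and 19529 ± 4710 CPM in FFPE, below all controls. These sums are made of the genes that chose the set and carry no test.

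**Figure D2:**
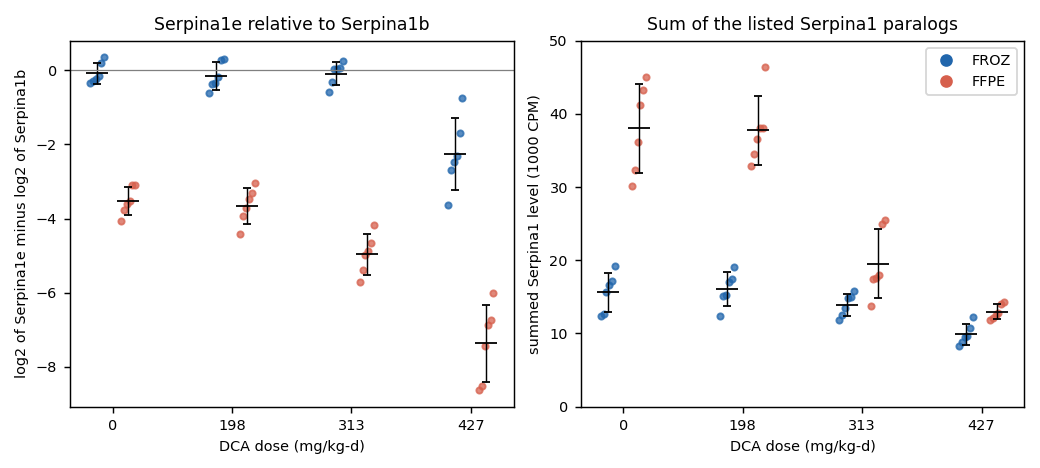
Left, log2 level of Serpina1e minus that of Serpina1b in each library by DCA dose. Right, summed level of the listed Serpina1 copies in 1000 CPM. Points are libraries (FROZ blue, FFPE red), bars the mean and SD of 6. The difference was lowest at 427 mg/kg-d in each table, at a mean of -2.26 in FROZ and -7.36 in FFPE.

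Of the other antitrypsin copies, Serpina1a fell at the highest dose in FFPE. FROZ controls lay between 5.73 and 6.50 (median 6.13) and the 427 mg/kg-d group between 5.09 and 6.04 (median 5.84), which overlapped. FFPE controls lay between 7.15 and 8.17 (median 7.39) and the 427 mg/kg-d group between 4.88 and 6.79 (median 6.59), which did not overlap. The log2 fold change was -0.40 (SE 0.18, FDR 0.10) in FROZ and -1.26 (SE 0.31, FDR 0.0179) in FFPE, where FDR is the Benjamini-Hochberg adjusted p of limma over all genes of the table. The FFPE call was lost without control animal 6, animal 99 or animal 101, or with a variance prior without trend, where the FDR reached 0.0692. Serpina1d was near the limit of detection: its FFPE libraries held a median of 3.62 reads and 2 of 24 were at 0. Its FFPE values were 0.82 to 2.32 in controls (median 1.06) and 0.38 to 0.89 at 427 mg/kg-d (median 0.47), against 0.71 for 3 reads in the median library, and its differences did not pass the test.

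The Serpina3 genes are copies related to human antichymotrypsin, and Serpina3k (contrapsin) fell at 427 mg/kg-d in both tables. FROZ controls lay between 14.65 and 15.17 (median 15.00) and the 427 mg/kg-d group between 13.75 and 14.64 (median 14.16), with no overlap. FFPE controls lay between 12.41 and 13.78 (median 13.26) and the 427 mg/kg-d group between 11.34 and 12.48 (median 11.86), with 4 of 6 animals below all controls. The log2 fold change was -0.78 (SE 0.19, FDR 0.00252) in FROZ, a 1.71-fold lower mean, and -1.26 (SE 0.32, FDR 0.0254) in FFPE, a 2.40-fold lower mean. The FROZ call held under each of 19 alternatives and the FFPE call under 10 of 20. It was lost without control animal 4, 5, 6 or 7, without animal 98, 99, 101 or 102, with an offset of 0.0001 CPM or with a variance prior without trend, and its FDR over the alternatives ran from 1.47e-05 to 0.163.

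Serpina3m, the neighbour of Serpina3k, fell in FROZ. Its controls lay between 7.55 and 7.81 (median 7.67) and the 427 mg/kg-d group between 5.86 and 7.31 (median 6.81), without overlap, for a log2 fold change of -0.93 (SE 0.20, FDR 0.000633). In FFPE its controls spread from 0 to 6.06 (median 4.64), with 1 library at 0, and the 427 mg/kg-d group from 4.27 to 5.05 (median 4.59). The FFPE log2 fold change was 0.64 (SE 0.75, 95% interval -0.88 to 2.16) and did not pass the test. Serpina3n, the copy known for its rise in inflammation, passed no test in either table. Its FROZ values were 4.76 to 6.05 in controls (median 5.36), 5.19 to 6.48 at 313 (median 5.44) and 4.19 to 5.89 at 427 mg/kg-d (median 4.97), all overlapping. In FFPE 6 of 24 libraries were at 0 reads of Serpina3n, and the interval of its log2 fold change at 427 mg/kg-d ran from -3.45 to 0.49.

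Serpina10, the factor Xa inhibitor, fell at 427 mg/kg-d in FROZ. Controls lay between 9.16 and 10.04 (median 9.44) and the treated group between 8.29 and 8.82 (median 8.60), for a log2 fold change of -0.91 (SE 0.14, FDR 1.22e-05), a 1.89-fold lower mean. The FFPE values also separated, with controls between 6.19 and 7.37 (median 6.58) and the 427 mg/kg-d group between 4.99 and 6.05 (median 5.49). The FFPE log2 fold change of -1.17 (SE 0.35, FDR 0.0831) did not pass the threshold, but passed with median ratio scaling, array weights or a fit of only the groups compared, and without the 4 FFPE libraries that had more than 1000 genes at 0 (an alternative chosen after seeing the data). Serpina6, the corticosteroid carrier, did not pass in any comparison. Its FROZ values were 5.44 to 6.75 in controls (median 6.05) and 5.98 to 7.09 at 427 mg/kg-d (median 6.36), with a log2 fold change of 0.37 (SE 0.22, 95% interval -0.08 to 0.83). Its FFPE log2 fold change was 0.59 (SE 0.43, 95% interval -0.28 to 1.45), so an increase of 1 on the log2 scale lay inside the FFPE interval and outside the FROZ interval.

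Counted over the genes other than Serpina1b and Serpina1e, 3 of 6 fell in FROZ at 427 mg/kg-d (Serpina3k, Serpina3m and Serpina10) and none rose, where 7.33% of all genes tested were called lower, 22.7% higher and 30.1% in either direction. In FFPE at 427 mg/kg-d 2 of 7 fell (Serpina1a and Serpina3k) and none rose, where 0.869% of genes were called lower, 1.54% higher and 2.41% in either direction. The median log2 fold change of these members was -0.59 in FROZ and -1.17 in FFPE, against 0.10 and 0.18 over all genes tested. At 198 mg/kg-d limma called 0 of 6 members in FROZ (1.56% of all genes) and 0 of 7 in FFPE (0.0599%), with 1 member at an unadjusted p under 0.05 in each. At 313 mg/kg-d it called 0 of 6 in FROZ (26.7% of all genes) and 0 of 7 in FFPE (1.08%), with 2 members and 1 member at an unadjusted p under 0.05. The count of 0 in FROZ at 313 mg/kg-d became 2 (Serpina3m and Serpina10) without animal 78 or with median ratio scaling, and 1 (Serpina10) without control animal 7. Median ratio scaling moved the median log2 fold change of all FROZ genes from 0.11 to -0.00433 at 313 and from 0.10 to -0.00686 at 427 mg/kg-d. It also moved the share of higher among all FROZ calls from 77.0% to 48.6% at 313 and from 75.6% to 50.0% at 427 mg/kg-d, and in FFPE at 427 mg/kg-d from 64.0% to 52.1%. At 198 mg/kg-d that FROZ share moved from 71.6% to 23.4%. The members called at 427 mg/kg-d were lower under both scalings.

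**Figure D3:**
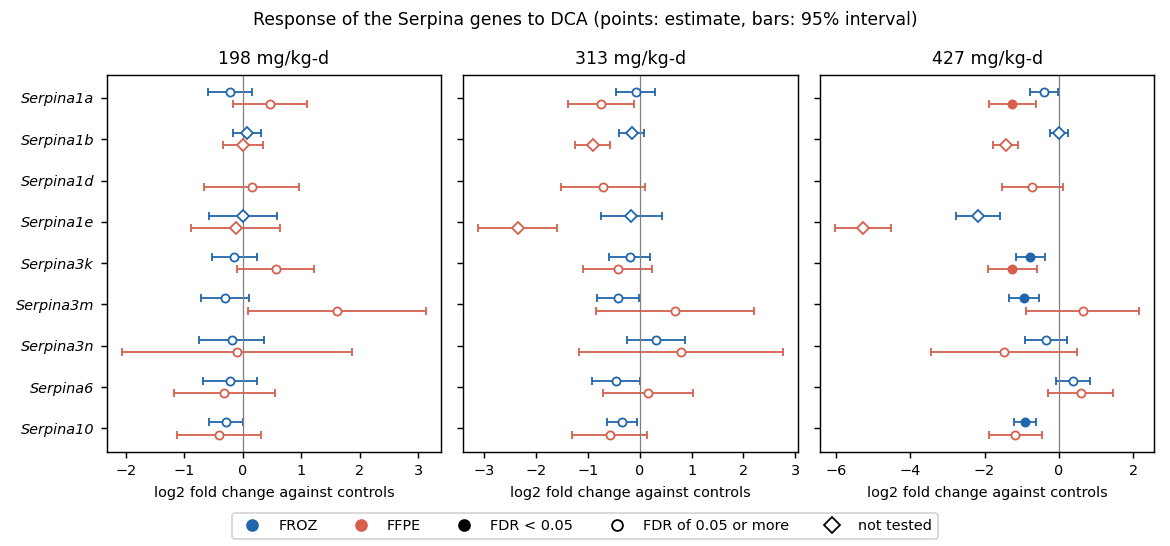
Log2 fold change of each Serpina gene against controls at each dose in FROZ (blue) and FFPE (red), with 95% intervals from the limma fit. Filled circles passed an FDR of 0.05, open circles did not, and diamonds mark Serpina1b and Serpina1e, which were not tested. At 427 mg/kg-d the called genes, 3 in FROZ and 2 in FFPE, all lay below 0.

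Whether FFPE and FROZ responses differed was asked with the difference between each animal's own libraries, FFPE less FROZ. For Serpina1e the difference of the responses was -0.12 (SE 0.47) at 198, -2.18 (SE 0.47) at 313 and -3.09 (SE 0.47) at 427 mg/kg-d, and for Serpina1b it was -0.08 (SE 0.22), -0.75 (SE 0.22) and -1.43 (SE 0.22). These are the values that chose the set. Of the other 6 members listed in both tables limma called 0 at 198 mg/kg-d (0.0303% of all genes), 0 at 313 mg/kg-d (0% of all genes) and 0 at 427 mg/kg-d (0.0303% of all genes), with 2, 1 and 1 members at an unadjusted p under 0.05. Serpina1a had the largest of these at 427 mg/kg-d relative to its error, -0.86 (SE 0.31, 95% interval -1.51 to -0.22). As reads of Serpina1b may enter Serpina1a, this value is not independent of the genes that chose the set. Serpina3m differed the other way, by 1.57 (SE 0.77, 95% interval -0.01 to 3.16). The 2 members under an unadjusted p of 0.05 at 198 mg/kg-d were also positive, Serpina3m at 1.92 and Serpina1a at 0.69 on the log2 scale. For Serpina3k at 427 mg/kg-d the interval was -1.32 to 0.35, for Serpina10 -0.95 to 0.43 and for Serpina6 -0.85 to 1.27. A difference of 1 on the log2 scale thus lay within the interval of Serpina3k and of Serpina6, and outside that of Serpina10. For Serpina3n it was wider, -3.35 to 1.08.

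A measure that the choice of genes did not use is whether an animal that was high for its dose in FROZ was also high in FFPE. Deviations from the dose group mean were correlated over the 24 animals for each of 6591 genes, and 0 of the 8 members passed an FDR of 0.05, against 46 genes (0.698%) by Pearson's r and 33 genes by Spearman's rho. Serpina10 came closest, with r = 0.51 (permutation p = 0.0157, FDR 0.277) and rho = 0.44 (permutation p = 0.0472, FDR 0.473), and r = 0.44 (permutation p = 0.0717) without the 2 animals farthest from its FROZ median. It was the 1 member of 8 with an unadjusted p under 0.05. Without the controls it had r = 0.41 (permutation p = 0.115), and Serpina1a was the member under 0.05, with r = 0.55 (permutation p = 0.0287, FDR 0.477). With all animals Serpina1a had r = 0.44 (permutation p = 0.0521), which dropped to 0.17 without 2 such animals. Serpina1e had r = 0.36, Serpina3k 0.28, Serpina1b 0.06, Serpina6 0.04, Serpina3m -0.08 and Serpina3n -0.15, and the median over all genes was 0.09. The r of Serpina1b was 0.23 with median ratio scaling.

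**Figure D4:**
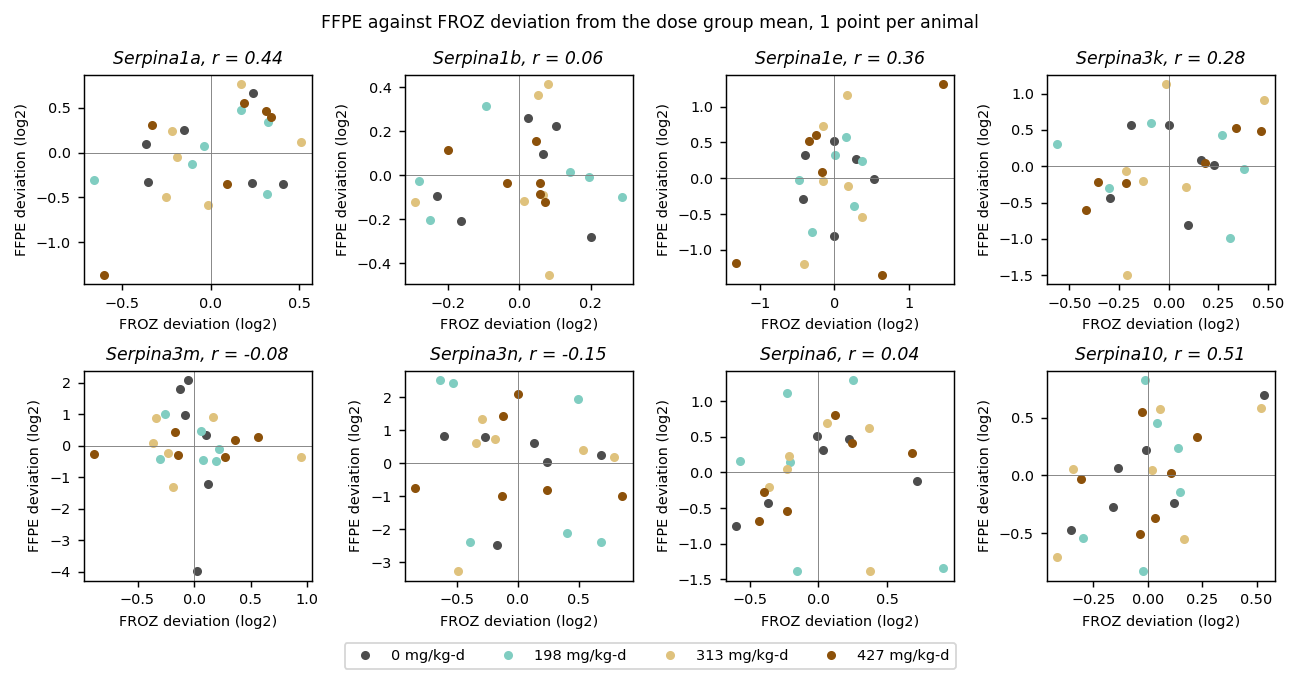
Deviation of each animal from its dose group mean in FFPE (y) against FROZ (x), log2 scale, for the 8 genes listed in both tables, with 1 point per animal coloured by dose and Pearson's r above each panel. Serpina10 had the highest r, 0.51, and 1 Serpina3m control with an FFPE value of 0 lay far below the rest.

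The genes whose levels ran most like Serpina1e and Serpina1b over the 24 libraries of a table were found by Pearson's r. It is given as a description without a test, since libraries share dose and depth, and dose differences enter it for the genes that vary with dose. For Serpina1e in FROZ they were Selenbp2 (r = 0.90), Ces3b (0.85) and Hsd3b5 (0.85), and in FFPE Selenbp2 (0.96), C9 (0.95) and C8a (0.90). Selenbp2, which encodes a selenium-binding protein of liver, was thus nearest in both tables. For Serpina1b in FROZ they were Uroc1 (0.91), Mphosph8 (0.85) and Rbp4 (0.85), whose r with Serpina1b in FFPE was 0.02, -0.16 and 0.18. In FFPE they were C9 (0.93), Selenbp2 (0.91) and Sdc4 (0.88), whose r in FROZ was 0.12, 0.23 and 0.27. Serpina1b was chosen for differing between the tables, so nothing is read from its differing neighbours.

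Other clade A serpins moved in both directions. Of 17 genes on the list 7 were tested in FROZ and 5 in FFPE. In FROZ 1 rose and 4 fell at 313 mg/kg-d (20.5% of all genes were called higher and 6.15% lower). At 427 mg/kg-d 1 rose and 3 fell in FROZ (22.7% of all genes were called higher and 7.33% lower). Serpina7, which encodes thyroxine-binding globulin, rose: its FROZ medians were 4.60 in controls, 5.49 at 198, 7.43 at 313 and 8.76 at 427 mg/kg-d, and all treated animals lay above all controls. The share of all genes that separated in this way was not counted. At 198 mg/kg-d limma called 0 of the 7 genes in FROZ, Serpina7 (log2 fold change 0.97) included, where 1.56% of all genes were called. The log2 fold change of Serpina7 at 427 mg/kg-d was 4.18 (SE 0.29, FDR 2.44e-11), an 18.2-fold higher mean. In FFPE 3 of 6 Serpina7 controls were at 0 and the 427 mg/kg-d values ran from 4.58 to 7.06 (median 6.25), with an FDR of 0.0123 that was lost (0.201) with an offset of 0.0001 CPM. Serpina4-ps1, a kallistatin pseudogene, fell at 427 mg/kg-d by 2.36 (SE 0.53, FDR 0.00129) on the log2 scale in FROZ and by 2.88 (SE 0.73, FDR 0.0238) in FFPE, where the call was lost in 8 of 20 alternatives. In FROZ at 427 mg/kg-d Serpina9 fell by 1.44 (SE 0.29) and Serpina11 by 1.25 (SE 0.26). Agt, which encodes angiotensinogen, fell at 313 mg/kg-d by 0.69 (SE 0.19, FDR 0.00766) and had medians of 4.00 in controls and 4.14 at 427 mg/kg-d. The list's median log2 fold change in FROZ was -0.69 at 313 and -0.38 at 427 mg/kg-d.

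Of 11 serpins of other clades that liver makes, 10 were tested in FROZ, where 0 rose and 4 fell at 313 and 1 rose and 5 fell at 427 mg/kg-d. Over all genes 20.5% were called higher and 6.15% lower at 313, and 22.7% higher and 7.33% lower at 427 mg/kg-d. Serpinb1a, a leukocyte elastase inhibitor, rose at 427 mg/kg-d by a log2 fold change of 1.13 (SE 0.32). Serping1, the C1 inhibitor of complement, fell in both tables, from a median of 8.88 to 8.06 in FROZ and from 8.52 to 7.42 in FFPE, with log2 fold changes of -0.86 (SE 0.10) and -1.02 (SE 0.25, FDR 0.0179). Serpine2 fell by 1.19, Serpinf1 by 0.55, Serpinf2 (antiplasmin) by 0.39 and Serpind1 (heparin cofactor) by 0.26 on the log2 scale in FROZ at 427 mg/kg-d, and Serpini1 fell by 0.47 at 313 mg/kg-d. The Serpind1 call was lost in 9 of 19 alternatives, the Serpini1 call in 6 of 18 and the FFPE call of Serping1 in 4 of 20, where its FDR reached 0.109. In FFPE 1 of the 7 tested, Serping1, was called at 427 mg/kg-d, where 2.41% of all genes were called in either direction.

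**Figure D5:**
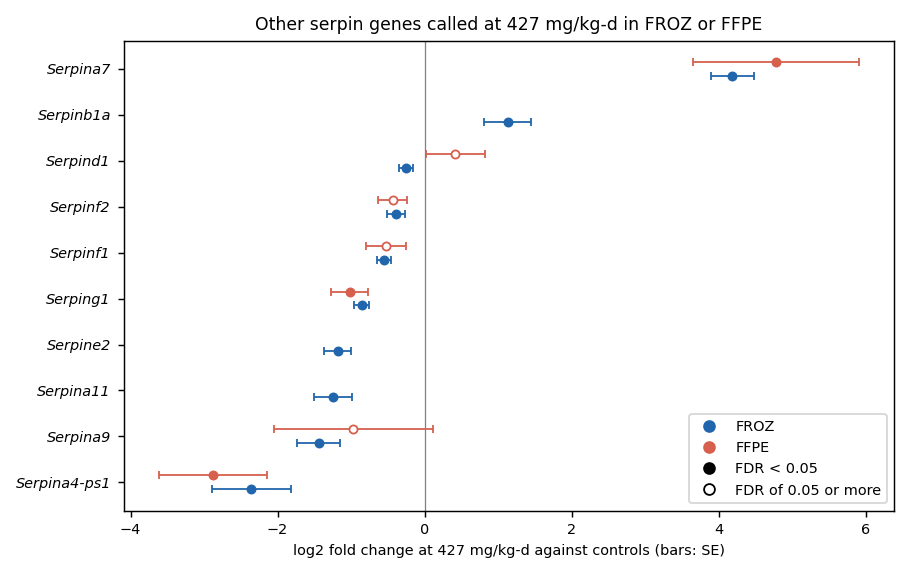
Log2 fold change at 427 mg/kg-d against controls of the other serpin genes called in FROZ (blue) or FFPE (red), with SE bars and filled points at an FDR under 0.05. Serpina7 and Serpinb1a lay above 0 in FROZ and the other called genes below.

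Serine proteases that these serpins or their relatives inhibit were measured as well, on a list that also held Proz (protein Z), the cofactor of Serpina10 and not a protease. Of 10 genes tested in FROZ, 8 fell at 313 mg/kg-d (6.15% of all genes were called lower), all of them proteases. At 198 mg/kg-d F9 and F12 fell (1.56% of all genes were called in either direction), the F9 call being lost in 13 of 19 alternatives. At 427 mg/kg-d the 9 proteases fell and Proz rose (7.33% of all genes were called lower and 22.7% higher), with a median log2 fold change of -0.73. The largest were F11 (-1.11), F2 (prothrombin, -0.93), F7 (-0.86) and F9 (-0.75), all coagulation factors, and Proz rose by 0.30, with the call lost in 12 of 19 alternatives. In FFPE limma called 0 of 10 at 427 mg/kg-d (2.41% of all genes were called), with 5 at an unadjusted p under 0.05 and a median of -0.56. Of 15 factors and receptors known to act on liver serpin genes, 4 fell and 1 rose in FROZ at 427 mg/kg-d. Over all genes 7.33% were called lower and 22.7% higher. In either direction the share of the list was near the 30.1% of all genes, so its number of calls is no result about this list. Stat5b fell by 0.65, Stat3 by 0.63, Il6ra by 0.51 and Ghr (growth hormone receptor) by 0.49 (the Il6ra call being lost in 6 of 18 alternatives), and Hnf4a rose by a log2 fold change of 0.45. Hnf4a is also on the hepatocyte list and lost its call with median ratio scaling (FDR 0.0525). Stat5b fell at 313 mg/kg-d too, by 0.80. In FFPE limma called 0 of 13 at 427 mg/kg-d (2.41% of all genes were called), with 0 at an unadjusted p under 0.05.

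Markers of hepatocytes went in both directions, while their summed level was lower at 427 mg/kg-d in both tables. Their summed level was 31351 to 35541 CPM in FROZ controls (median 34391) and 25963 to 29832 CPM at 427 mg/kg-d (median 26710), without overlap. In FFPE it was 42466 to 54917 CPM (median 49745) and 29133 to 33991 CPM (median 31633), also without overlap. In FROZ at 427 mg/kg-d 3 of 9 hepatocyte markers fell (Fgb, Apob and Apoh) and 1 rose, where 7.33% of all genes were called lower and 22.7% higher. Of 8 Kupffer cell markers 6 fell, with a summed level of 234 to 312 CPM in controls and 146 to 218 CPM in the treated group. The calls of Cd5l and Csf1r among them were lost in 8 and 9 of 19 alternatives. In FFPE at 427 mg/kg-d 3 of 8 hepatocyte markers fell and none rose, where 0.869% of all genes were called lower and 1.54% higher. These were Apoh, Apoa1 and Fgb, whose calls held in 9, 19 and 13 of 20 alternatives. Limma called 0 of 5 Kupffer cell markers in FFPE, with 2 at an unadjusted p under 0.05. The summed level of these Kupffer cell markers was 259 to 523 CPM in controls and 177 to 252 CPM at 427 mg/kg-d, without overlap. In FROZ, summed endothelial cell markers lay between 370 and 435 CPM in controls and 344 and 400 CPM at 427 mg/kg-d. Stellate cell markers in FROZ lay between 302 and 683 CPM and between 251 and 454 CPM, and both pairs of ranges overlapped. Cholangiocyte markers in FROZ summed to 34.2 to 46.0 CPM in controls and 31.2 to 48 CPM at 427 mg/kg-d, and blood cell markers to 75.9 to 114 CPM and 48.6 to 100 CPM. Single markers of these lists were also called lower in FROZ at 427 mg/kg-d. They were 1 of 10 endothelial (Stab2), 2 of 9 stellate (Dcn and Colec11) and 2 of 6 blood cell markers (Alas2 and Hba-a1). The Colec11 call held in 9 of 19 alternatives. Limma called 0 of 5 cholangiocyte markers, and no marker of these 4 lists was called higher. In FFPE the sums of endothelial, stellate, cholangiocyte and blood cell markers at 427 mg/kg-d also overlapped those of controls. The part of these shifts in the serpin results was not tested, and in bulk tissue fewer cells of a type and less RNA per cell cannot be told apart.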

How the data were processed

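TempO-Seq libraries were compared in 24 paired frozen and FFPE livers. According to the study's methods, reads of 50 bases were aligned to mm10 with STAR, counted per gene by expectation maximization in Partek against RefSeq transcripts, filtered on low geometric mean and scaled to library totals (CPM). The authors deposited log2(CPM + 1) values, 1 table for each preservation, each filtered and scaled separately, so levels were not tested across tables. The members and gene lists were chosen with earlier results of these data known.

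Doses were compared with controls by limma 3.58.1 (R 4.3.3) with a mean-variance trend, on all 24 libraries and all genes of a table, at a Benjamini-Hochberg FDR of 0.05 over the table. 2 names that occur more than once in FROZ were kept as separate rows. FFPE minus FROZ differences within animals were fitted likewise over 6591 genes. Pairing came from the animal number in the labels. It was checked only among animals of the same dose, over 4815 genes. There, 21 of 24 FROZ libraries correlated best with their own animal's FFPE library. The median r was 0.128 for the own animal and -0.0232 for other animals of that dose. Agreement within doses used 100000 permutations. No p was computed for Serpina1b or Serpina1e responses, on which the set was chosen. Folds are on the log2(CPM + 1) scale and understate changes of low genes. Reads were recovered from the steps between low values, of which 96.5 to 97.5% in FROZ and 85.7 to 95.8% in FFPE were whole within 0.1 reads, and counting error alone sets the 3-read limit.

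Named were all members, every called gene of the 2 lists of other serpins (from which 1 gene is not reported here), up to 4 genes of each further list by size of change at 427 mg/kg-d, and the 3 genes nearest to Serpina1b and Serpina1e by Pearson's r. F12, Proz, Hnf4a as a regulator, and the markers Cd5l, Csf1r, Alb, Ttr, Asgr1 and Apoa1 were named after their values were seen. Coding sequences (GENCODE vM21) were aligned with mafft 7.526. Alternatives were other offsets, filters, scalings and variance priors, array weights, fits of only the groups compared, and each library left out.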

Additional observations from a re-analysis of the deposited data

Results flagged for a closer look

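Of 68 groups of 6 libraries examined for a lone extreme value, 3 were marked, and chance alone marks about 1 in 20. Serpina3n in FFPE was at 0 in control animal 3, where the next lowest control was 2.50, and the gap was 0.759 of the group's range. Serpina3n in FFPE was also at 0 in animal 73 at 313 mg/kg-d, where the next value was 3.46 and the gap 0.752 of the range. Serpina1b in FROZ was 12.49 in animal 75 at 313 mg/kg-d, where the next value was 12.80 and the gap 0.810 of the range. No cause was tested for any of these.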

How the results depend on the processing

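Each called member and each called gene of the 2 lists of other serpins kept its direction under every alternative run. Direction over the alternatives was not tabulated for genes of the further lists. The untested FROZ change of Serpina1b, near 0, ran from -0.15 to 0.04 at 427 mg/kg-d. The count of members called in FROZ at 427 mg/kg-d was 3 under every alternative. In FROZ at 313 mg/kg-d it was 0 and became 2 with median ratio scaling, and 0 to 2 when 1 library was left out. In FFPE at 427 mg/kg-d it was 2, and became 1 with an offset of 0.0001 CPM, 0 when the variance prior had no trend, 3 with median ratio scaling, array weights or only the compared groups, and 0 to 2 when 1 library was left out. The other comparisons gave 0 members throughout. For FFPE minus FROZ, the fit without the animal as replicate block called 0 members at each dose, as did the paired fit, and the pairing changed no member's call. Leaving out the 4 FFPE libraries with more than 1000 genes at 0, an alternative added after seeing the data, kept both FFPE calls at 427 mg/kg-d and added Serpina10, 3 in all. Over all genes, calls ran from 51 to 299 around 176 in FROZ at 198 mg/kg-d, and in FFPE from 1 to 40 around 4 at 198, from 35 to 126 around 72 at 313 and from 94 to 524 around 161 at 427 mg/kg-d. For FFPE minus FROZ they ran from 0 to 10 around 2, from 0 to 1 around 0 and from 1 to 12 around 2. The causes of these changes were not tested. Serpina1d had a median of 3.62 reads in FFPE, and leaving out controls lowered the genes in agreement from 46 to 9.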
